A study of Homo sapiens with 54 samples.

Results

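The heat shock chaperones of the cytosol and mitochondria were examined in a human breast cancer cell line, MDA-MB-231, as the 10 genes HSPA1A, HSPA1B, HSPA8, DNAJB1, HSPH1, HSP90AA1, HSPB1, BAG3, HSPD1 and HSPE1, chosen by name among the 27978 genes of the count table. RNA was sequenced in 54 libraries, 18 groups of 3 replicates each, from cells that were untreated or had received Compound Kushen Injection (CKI), a traditional Chinese medicine extract, or mixtures made from it. CKI was given at 2 mg/ml and the mixtures at the equivalent dose, for 24 or 48 h. Batch 1 held, at both times, untreated cells, CKI, N-OmtOspc (CKI without oxymatrine and oxysophocarpine), N-MacOmtOspc (CKI without these and macrozamin), OmtOspc (oxymatrine and oxysophocarpine only) and MacOmtOspc (those and macrozamin only). Batch 2 held, at 48 h only, untreated cells, CKI and 4 mixtures lacking 1 component each, N-Mac (macrozamin), N-Nme (N-methylcytisine), N-Omt (oxymatrine) and N-Tri (trifolirhizin). All groups share this 1 cell line, grown in serum-containing medium. The labels do not state whether the replicates were separate cultures, so the p-values measure the spread between these libraries, which may be technical.

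Heat shock chaperones bind unfolded proteins and help them to fold. When unfolded proteins accumulate, heat shock factor 1 is released from its chaperone partners, forms trimers and binds arrays of inverted nGAAn units, called heat shock elements, in front of chaperone genes. HSPA1A and HSPA1B encode the stress-inducible HSP70, HSPA8 the constitutive one, DNAJB1 a J protein that stimulates HSP70's ATPase, HSPH1 an HSP110 nucleotide exchange factor, HSP90AA1 the inducible cytosolic HSP90, HSPB1 the small heat shock protein HSP27 and BAG3 a co-chaperone that links HSP70 to selective autophagy, while HSPD1 and HSPE1 encode the chaperonin HSP60 and its co-chaperonin HSP10 of the mitochondrial matrix. Tumour cells commonly keep several of these genes active without heat.

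The promoters differed in how many heat shock elements their letters spelled. The 250 bases before each RefSeq start site (GRCh38.p14) were searched for a pair of units, GAANNTTC or TTCNNGAA, and for a run of 3 units, in which GAA and TTC alternate with 2 free bases between them. Each pair reads the same on both strands, the runs of 3 are each other's reverse complement, and neighbouring pairs may overlap in 1 run. A pair was present in 11.6% of all 35116 promoters of this length and a run of 3 in 0.441%. All 10 genes had such a promoter, with 14 start sites in all. A pair lay before 7 of the 14 start sites and a run of 3 before 3 of them, the counts to set beside these shares. By gene, 7 had a pair, of which 3 (HSPA8, HSP90AA1 and HSPD1) had a run of 3. Only exact matches were counted, and none lay in the windows of HSPH1, HSPE1 and BAG3. HSPE1 (window chr2:197500129-197500378, plus strand) and HSPD1 at its second start site (chr2:197499841-197500090, minus strand) point away from each other. The HSPD1 runs thus lie between both start sites, but outside the HSPE1 window. Below are HSPA1A and HSPA1B, to show how alike the inducible pair is, DNAJB1, which had 2 separate pairs, and HSPA8, which had 2 separate runs of 3. Capitals mark the matches, and each sequence runs 5′ to 3′ on the gene's strand up to the base before the start site.
HSPA1A: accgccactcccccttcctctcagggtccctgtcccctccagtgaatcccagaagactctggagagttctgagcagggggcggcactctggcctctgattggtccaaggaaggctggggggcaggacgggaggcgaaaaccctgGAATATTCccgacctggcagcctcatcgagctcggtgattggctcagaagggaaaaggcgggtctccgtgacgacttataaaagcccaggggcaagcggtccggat
HSPA1B: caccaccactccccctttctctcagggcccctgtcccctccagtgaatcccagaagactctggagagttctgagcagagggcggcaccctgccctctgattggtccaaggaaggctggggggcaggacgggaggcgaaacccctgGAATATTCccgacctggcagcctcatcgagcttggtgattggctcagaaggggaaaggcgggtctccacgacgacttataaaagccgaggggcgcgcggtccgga
DNAJB1: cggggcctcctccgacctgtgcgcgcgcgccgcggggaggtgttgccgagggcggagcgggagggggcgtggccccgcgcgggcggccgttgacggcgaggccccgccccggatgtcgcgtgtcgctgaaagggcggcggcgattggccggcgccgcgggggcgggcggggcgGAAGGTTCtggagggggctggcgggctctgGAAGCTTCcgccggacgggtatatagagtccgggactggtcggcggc
HSPA8: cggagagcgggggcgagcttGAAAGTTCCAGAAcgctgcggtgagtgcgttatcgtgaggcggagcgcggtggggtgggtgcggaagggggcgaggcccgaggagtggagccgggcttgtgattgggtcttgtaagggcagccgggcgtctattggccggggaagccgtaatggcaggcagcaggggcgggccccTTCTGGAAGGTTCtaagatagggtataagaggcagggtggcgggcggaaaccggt
HSPA1A (chr6:31815293-31815542, plus strand) and HSPA1B (chr6:31827488-31827737, plus strand) held the same match, GAATATTC, which began 106 and 105 bases before the start. DNAJB1 is shown at the second of its 3 listed start sites (chr19:14518398-14518647, minus strand), with matches beginning at 77 and 47 bases, and HSPA8 at its only one (chr11:123062137-123062386, minus strand), with runs beginning at 230 and 55 bases. In HSP90AA1 the run was TTCCGGAAGGTTC at 88 bases and in HSPD1 there were 2 overlapping runs, TTCTGGAAAGTTC at 245 and GAAAGTTCTGGAA at 240 bases, before the second start site of each. HSPB1 held a single pair, GAAGGTTC, at 182 bases. These matches describe letters and not sites shown to be bound.

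Library totals were between 17673537 and 26138924 counts. Of the marker genes of MDA-MB-231 cells, VIM ranged from 489.6 to 1562 CPM (counts scaled to the library total) and CD44 from 328 to 671 CPM, while the receptor genes ESR1 and PGR reached no more than 8 and 2 counts in a library. GATA3 (5.22 to 45.4 CPM) and EPCAM (6.25 to 27.3 CPM), luminal markers listed as low in this line, were detected in every library. Some markers differed with treatment, as in N-OmtOspc at 48 h, where CD44 had a mean of 429 CPM against 423 CPM untreated, but VIM had 609.9 against 1183 CPM, AXL 275 against 853 CPM, LGALS1 233 against 863 CPM and CAV1 79.6 against 699 CPM, while FOXA1 had 2.27 against 0.014 CPM, and the part of this in the results was not tested. The 7 fibroblast markers summed to between 14.5 and 98.8 CPM, with DCN, COL3A1 and PDGFRA at 0 in some libraries. Across the 698 genes that differed over 2-fold between untreated cells of the 2 batches, CKI replicate 1, N-MacOmtOspc replicate 2 and OmtOspc replicate 2 at 24 h leaned towards batch 2 (slopes of 0.6 to 0.696, against -0.423 to 0.107 in the other 33 libraries of batch 1), and these are the 3 whose column names carry no replicate number. Each slope compares a library with the other 2 of its group, which pushes the group mates of the 3 below 0 (-0.423 to -0.189). The remaining libraries lay between -0.134 and 0.107. Results at 24 h are therefore also given without the 3 libraries that leaned towards batch 2. None of them is an untreated, N-OmtOspc or MacOmtOspc library. For comparisons among those groups, leaving them out changes only the spread, filter and scaling of the fit. In untreated cells at 48 h, HSPA8, HSP90AA1 and HSPD1 were higher in batch 2 than in batch 1 by 0.39, 0.35 and 0.38 on the log2 scale and BAG3 was lower by a log2 difference of -0.25 (41.8% of all genes differed), so the untreated libraries of the same time and batch served as the reference of each treatment. Between 48 h and 24 h none of the 10 differed in untreated cells (7.07% of all genes did).

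The clearest changes were in the inducible HSP70 genes and in HSPB1. After 24 h, mixtures without oxymatrine and oxysophocarpine raised HSPA1A, HSPA1B, DNAJB1 and HSPH1, while CKI itself raised none of the 10. HSPB1 was the member most often reduced, lower than untreated in 11 of 15 comparisons and higher in none. HSPE1 was lower in 7 and higher in none. HSP90AA1, in contrast, passed the test in only 4 of 15. In a single comparison, 4.84% to 39.9% of all genes were lower, and 10.5% to 78.2% passed in either direction. The comparisons of a set share its untreated libraries, so these counts are not of separate results. Each member is a bulk level, in which fewer cells expressing a gene and less RNA per cell cannot be told apart. The heat map of changes against untreated cells shows these patterns side by side.

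**Figure D1:**
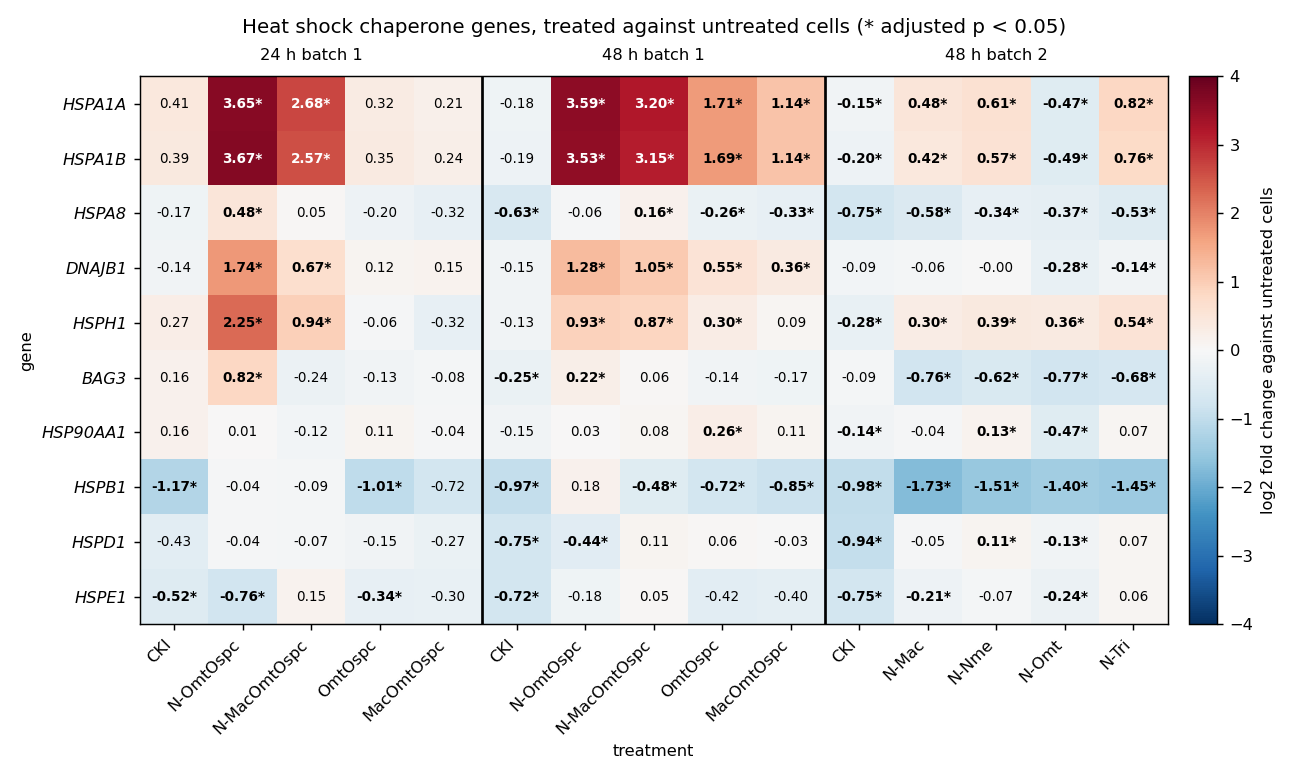
Log2 fold changes of the 10 chaperone genes (rows) in each treatment (columns) against the 3 untreated libraries of the same time and batch, with an asterisk where edgeR's adjusted p was under 0.05. The red block of HSPA1A and HSPA1B reaches 3.65 and 3.67 in N-OmtOspc at 24 h, and the HSPB1 row is blue down to -1.73 in N-Mac.

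At 24 h, 7 of the 10 genes passed the test in N-OmtOspc, 6 higher and 1 lower (62.1% of all 15191 genes tested passed, 31.1% higher and 30.9% lower), with a median log2 fold change of 0.65 against -0.01 over all genes. N-MacOmtOspc gave 4, all higher (45% of all genes, 23.2% higher and 21.8% lower), CKI 2, both lower (30%, 15.3% higher and 14.8% lower), and OmtOspc 2, both lower (16.7%, 9.03% higher and 7.72% lower). MacOmtOspc gave 0 by edgeR (10.5% of all genes, 5.61% higher and 4.84% lower), with 3 at an unadjusted p under 0.05, and DESeq2 called HSPB1 and HSPE1 lower (2 genes). Without the 3 libraries the counts were 7 in N-OmtOspc, 5 in N-MacOmtOspc, 4 in CKI, 3 in OmtOspc and 3 in MacOmtOspc, with 68.5%, 54.2%, 32.7%, 22.3% and 20.2% of all genes called. At 48 h in batch 1 the counts were 5 in CKI, all lower (54% of all genes, 27% higher and 27% lower), 6 in N-OmtOspc, 5 of them higher (76.6%, 38.3% higher and 38.3% lower), 6 in N-MacOmtOspc, 5 of them higher (71.1%, 35.8% higher and 35.3% lower), 7 in OmtOspc, 5 of them higher (57.8%, 29.1% higher and 28.7% lower), and 5 in MacOmtOspc, 3 of them higher (51.2%, 25.7% higher and 25.5% lower). In batch 2 they were 8 in CKI, all lower (66.4%, 32.3% higher and 34.2% lower), 7 in N-Mac, 3 of them higher (72.4%, 36.9% higher and 35.4% lower), 8 in N-Nme, 5 of them higher (71.3%, 35.9% higher and 35.4% lower), 10 in N-Omt, 9 of them lower (78.2%, 38.4% higher and 39.9% lower), and 7 in N-Tri, 3 of them higher (72.2%, 34.8% higher and 37.4% lower). At 24 h as at 48 h, the number of members called in either direction was near the share of all genes in most of these comparisons. HSPA1A and HSPA1B, nearly identical copies, count here as 2 genes.

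HSPA1A, the inducible HSP70, ranged from 297 to 6320 CPM. At 24 h the 3 untreated libraries were at 315, 297 and 307 CPM and the 3 N-OmtOspc libraries at 3879, 3538 and 3811 CPM. Every N-OmtOspc library was far above every untreated one. The fibroblast marker sum was higher there too, at 66.6 to 98.8 CPM against 57.9 to 65.8 CPM, with COL1A1 higher (mean 40.4 against 18.9 CPM) and COL1A2 lower (15.9 against 30.3 CPM), and its part in the result was not tested. The fold change was 12.6 (log2 3.65 ± 0.37 SE, adjusted p = 3.18e-07, edgeR's quasi-likelihood test). In N-MacOmtOspc the libraries were at 2514, 728 and 2617 CPM, the middle one being replicate 2, which leaned towards batch 2. The fold change was 6.40 (log2 2.68 ± 0.36, adjusted p = 1.95e-05), and without the 3 libraries 8.38 (log2 3.07, adjusted p = 4.88e-11). With CKI the libraries were at 574, 323 and 327 CPM, all above the untreated ones by rank, and the difference did not pass the test (log2 0.41 ± 0.34, adjusted p = 0.372). The high value was that of replicate 1, and without it and the other 2 such libraries the log2 difference was 0.07. OmtOspc (352, 489.5 and 305 CPM) and MacOmtOspc (368, 361 and 336 CPM) did not pass the test at 24 h either.

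At 48 h HSPA1A separated all 6 groups of batch 1. Untreated libraries were at 427, 465 and 474 CPM, N-OmtOspc at 6320, 4551 and 5332 CPM, N-MacOmtOspc at 4281, 4131 and 4142 CPM, OmtOspc at 1515, 1521 and 1461 CPM, MacOmtOspc at 947, 1085 and 996 CPM, and CKI at 411, 388 and 402 CPM. No group's range overlapped that of its neighbour in this order, N-OmtOspc, N-MacOmtOspc, OmtOspc, MacOmtOspc, untreated, CKI, although CKI did not pass the test against untreated cells (log2 -0.18, adjusted p = 0.0865). The fold changes were 12.0 in N-OmtOspc (log2 3.59 ± 0.098, adjusted p = 1.32e-18), 9.18 in N-MacOmtOspc (adjusted p = 6.36e-18), 3.27 in OmtOspc (adjusted p = 5.53e-13) and 2.20 in MacOmtOspc (adjusted p = 6.05e-10). HSPA1A thus passed the test, higher, both without the 2 alkaloids and with them alone, and did not pass it with whole CKI. Leaving out untreated replicate 1 gave CKI a log2 change of -0.24 with an adjusted p of 0.0458.

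In batch 2 the changes of HSPA1A were smaller and split by mixture. Untreated libraries were at 532, 471 and 593 CPM, N-Tri at 981, 986 and 913 CPM, N-Nme at 801, 781 and 893 CPM, N-Mac at 781, 688 and 734 CPM, CKI at 493, 454 and 486 CPM, and N-Omt at 395, 367 and 389.7 CPM. The 3 mixtures without trifolirhizin, N-methylcytisine or macrozamin lay above every untreated library and the mixture without oxymatrine lay below every one. N-Tri rose 1.76-fold (adjusted p = 5.99e-13), N-Nme 1.53-fold (adjusted p = 4.44e-10) and N-Mac 1.39-fold (adjusted p = 6.43e-08), whereas N-Omt was 1.38-fold lower (adjusted p = 8.84e-08). N-Nme and N-Mac overlapped each other, as did untreated cells and CKI. The small decrease with CKI (log2 -0.15, adjusted p = 0.0354) was lost on leaving out untreated replicate 1 or 3 or CKI replicate 2 or 3, with adjusted p between 0.0503 and 0.293.

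HSPA1B gave the same picture as HSPA1A, with 9 comparisons higher, 2 lower and log2 changes from -0.49 to 3.67. Its CPM was 1.14 to 1.31 times that of HSPA1A in the 54 libraries, with a median of 1.23, and the Pearson r of their log2 CPM was 1.00. The 2 genes are nearly identical copies, and how reads that fit both were counted is not given in the sources used here, so their split is uncertain and the pair is no independent evidence. Summing their counts into 1 gene changed no call in any of 76 values. In batch 2, the call of HSPA1B lower with CKI (log2 -0.20, adjusted p = 0.0059) was lost without untreated replicate 3 (adjusted p = 0.07).

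DNAJB1, the J protein that works with inducible HSP70, rose in the mixtures where HSPA1A rose most. At 24 h it was at 261, 282 and 271 CPM in untreated libraries and at 929.5, 916 and 789.6 CPM in N-OmtOspc, with no overlap (3.33-fold, log2 1.74 ± 0.16, adjusted p = 8.02e-08). N-MacOmtOspc was at 488, 293 and 511 CPM (1.59-fold, adjusted p = 0.00193), with replicate 2 again the low one, and 1.84-fold without the 3 libraries (adjusted p = 2.22e-06). At 48 h the untreated libraries of batch 1 were at 314, 320.4 and 321 CPM and N-OmtOspc at 861, 678 and 740.4 CPM (2.43-fold, adjusted p = 3.33e-13). N-MacOmtOspc (2.07-fold), OmtOspc (1.46-fold) and MacOmtOspc (1.28-fold, adjusted p = 0.000251) followed in the same order as for HSPA1A. In batch 2 the gene fell in N-Omt (log2 -0.28, adjusted p = 8.72e-06) and in N-Tri (log2 -0.14, adjusted p = 0.0115), where HSPA1A had risen, and the second call was lost without untreated replicate 3 (adjusted p = 0.0937). N-Mac, N-Nme and CKI did not pass the test.

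HSPH1, the exchange factor, had its peak at 24 h. Untreated libraries were at 114, 123 and 123 CPM and N-OmtOspc at 596, 635 and 442 CPM, every library above the untreated range (4.76-fold, log2 2.25 ± 0.14, adjusted p = 2.13e-09). N-MacOmtOspc was at 225, 209 and 258 CPM (1.92-fold, adjusted p = 3.45e-05). At 48 h it was 1.91-fold higher in N-OmtOspc (285, 247 and 254 CPM against 148, 139.98 and 130.3 CPM, adjusted p = 4.31e-11), 1.82-fold in N-MacOmtOspc and 1.23-fold in OmtOspc (adjusted p = 0.000828), while MacOmtOspc did not pass. Unlike HSPA1A and DNAJB1, HSPH1 rose in all 4 single removals of batch 2, by log2 0.30 in N-Mac, 0.39 in N-Nme, 0.36 in N-Omt and 0.54 in N-Tri (largest adjusted p = 5.15e-06), and fell with CKI there (log2 -0.28, adjusted p = 2.09e-05). N-Omt therefore left HSPH1 above and HSPA1A below the untreated level in the same 3 libraries.

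**Figure D2:**
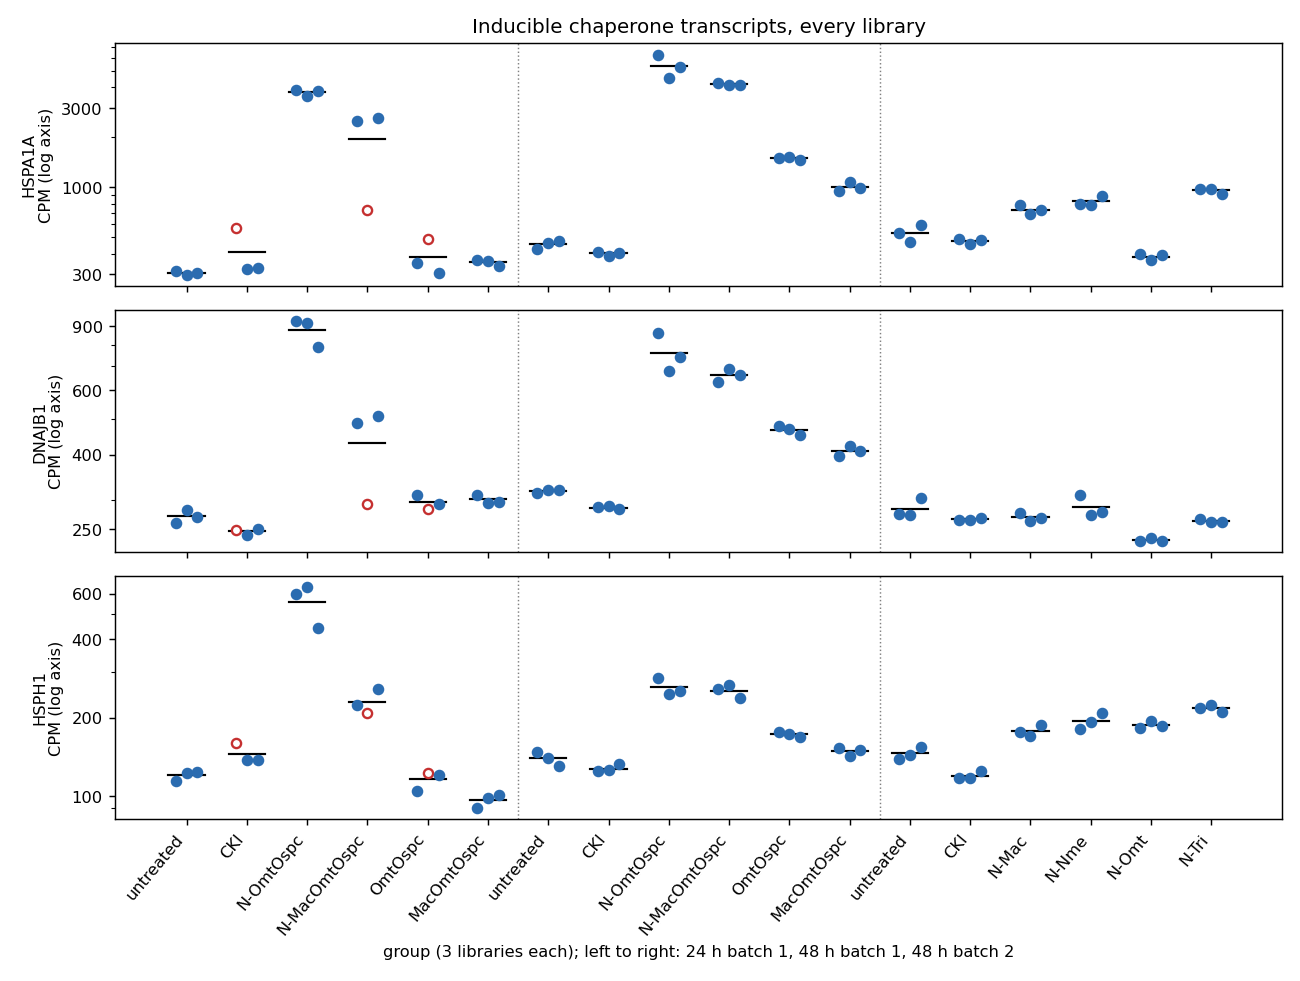
CPM of HSPA1A, DNAJB1 and HSPH1 (log axes) in each of the 54 libraries, by group, with the group mean as a line, dotted lines between the 3 time and batch sets, and the 3 libraries without a replicate number as open red circles. N-OmtOspc stands highest in both sets of batch 1, and for N-MacOmtOspc at 24 h the open circle is the lowest of its group in every panel, as for HSPA1A at 728 CPM.

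HSPA8, the constitutive HSP70, moved mostly downward. It was lower than untreated in 8 of 15 comparisons and higher in 2. With CKI at 48 h it was at 900, 849.7 and 816 CPM in batch 1 against 1405, 1315 and 1252 CPM untreated (log2 -0.63 ± 0.07, adjusted p = 1.4e-07). In batch 2 it was at 1029, 1028 and 1027 CPM against 1739, 1761 and 1692 CPM (log2 -0.75 ± 0.052, adjusted p = 4.73e-14), with no overlap in either batch. OmtOspc and MacOmtOspc lowered it at 48 h (log2 -0.26 and -0.33), as did all 4 single removals (log2 -0.34 to -0.58). At 24 h the CKI libraries were at 1539.7, 986 and 1007 CPM, and HSPA8 did not pass the test there with all libraries and passed it without the 3 (log2 -0.42, adjusted p = 0.0053), which held for OmtOspc (log2 -0.46, adjusted p = 0.00452) and MacOmtOspc (log2 -0.32, adjusted p = 0.0187) too. The increase in N-OmtOspc at 24 h (log2 0.48, adjusted p = 0.049) was lost on leaving out any untreated library or N-OmtOspc replicate 1 or 2 (adjusted p 0.083 to 0.121) but passed without the 3 libraries (log2 0.48, adjusted p = 0.000243), and that in N-MacOmtOspc at 48 h (log2 0.16, adjusted p = 0.0466) without untreated replicate 2 or 3 or N-MacOmtOspc replicate 1 or 3 (adjusted p 0.0827 to 0.192).

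HSP90AA1, the inducible cytosolic HSP90, stayed between 963 and 1689 CPM in all 54 libraries. In N-OmtOspc, where HSPA1A was raised 12-fold or more, its log2 changes were 0.01 ± 0.16 at 24 h and 0.03 ± 0.073 at 48 h, and neither passed the test. It rose in OmtOspc at 48 h (1427, 1360.2 and 1407 CPM against 1226, 1148 and 1101 CPM, log2 0.26, adjusted p = 0.00362). In N-Omt it fell to 1028, 1092 and 1074 CPM from 1472, 1513 and 1442 CPM (log2 -0.47 ± 0.051, adjusted p = 6.63e-10), its largest change against untreated cells and one with no overlap. Smaller calls were CKI in batch 2 (log2 -0.14), lost without CKI replicate 1 (adjusted p = 0.0502), and N-Nme (log2 0.13), lost without untreated replicate 1 or 3 or N-Nme replicate 3 (adjusted p 0.0639 to 0.0892). With CKI in batch 1 at 48 h, it passed without CKI replicate 1 (log2 -0.21, adjusted p = 0.0298) and did not pass with all libraries (log2 -0.15, adjusted p = 0.0835).

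The small heat shock protein HSPB1 was reduced by CKI in all 3 sets. Its CPM was 217, 208 and 262 against 586, 517 and 444 at 24 h (2.25-fold lower, log2 -1.17 ± 0.23, adjusted p = 0.00115). At 48 h it was 233, 199 and 198 against 358, 437 and 438 in batch 1 (1.95-fold lower, adjusted p = 3.66e-08), and 198, 181 and 184 against 368, 374 and 372 in batch 2 (1.98-fold lower, adjusted p = 1.03e-16). In each set every CKI library was below every untreated one. The single removals lowered it further, to between 105 and 150.1 CPM, 3.32-fold in N-Mac (log2 -1.73 ± 0.054, adjusted p = 4.04e-23), 2.85-fold in N-Nme, 2.73-fold in N-Tri and 2.63-fold in N-Omt. OmtOspc lowered it at 24 h (log2 -1.01, adjusted p = 0.00646) and at 48 h (log2 -0.72), and MacOmtOspc at 48 h (log2 -0.85). At 24 h MacOmtOspc passed when the 3 libraries, none of them MacOmtOspc or untreated, were left out (log2 -0.72, adjusted p = 0.0407, against 0.0541 with them). N-OmtOspc was the exception, at 448, 372 and 645 CPM at 24 h and 499.9, 458 and 419 CPM at 48 h, overlapping the untreated libraries both times (log2 -0.04, adjusted p = 0.897, and log2 0.18, adjusted p = 0.0952). N-MacOmtOspc passed at 48 h only (log2 -0.48, adjusted p = 0.00016).

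BAG3, the HSP70 partner in selective autophagy, rose with N-OmtOspc and fell with the single removals. At 24 h it was at 301, 268 and 298 CPM in N-OmtOspc against 176, 167 and 163 CPM untreated, without overlap (1.77-fold, log2 0.82 ± 0.11, adjusted p = 8.52e-06). At 48 h the N-OmtOspc value was log2 0.22 (adjusted p = 0.0122), a call lost without untreated replicate 1 (adjusted p = 0.11) or N-OmtOspc replicate 1 (adjusted p = 0.108). In batch 2, N-Mac was at 88.7, 90.6 and 90.8 CPM and N-Omt at 93.2, 85.3 and 91.1 CPM against 155, 151 and 155 CPM untreated. All 4 single removals lay below every untreated library, 1.69-fold in N-Mac, 1.54-fold in N-Nme, 1.71-fold in N-Omt and 1.60-fold in N-Tri (largest adjusted p = 1.03e-13), whereas CKI there did not pass (log2 -0.09, adjusted p = 0.0673). In batch 1 at 48 h CKI lowered it (log2 -0.25, adjusted p = 0.00942), except without untreated replicate 3 (adjusted p = 0.0773). Leaving out 1 library brought CKI in batch 2 (without CKI replicate 1, adjusted p = 0.0373), OmtOspc at 48 h (without untreated replicate 1, adjusted p = 0.0231) and MacOmtOspc at 48 h (without untreated replicate 1, adjusted p = 0.0135, or MacOmtOspc replicate 2, adjusted p = 0.0178) past the threshold, all lower.

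**Figure D3:**
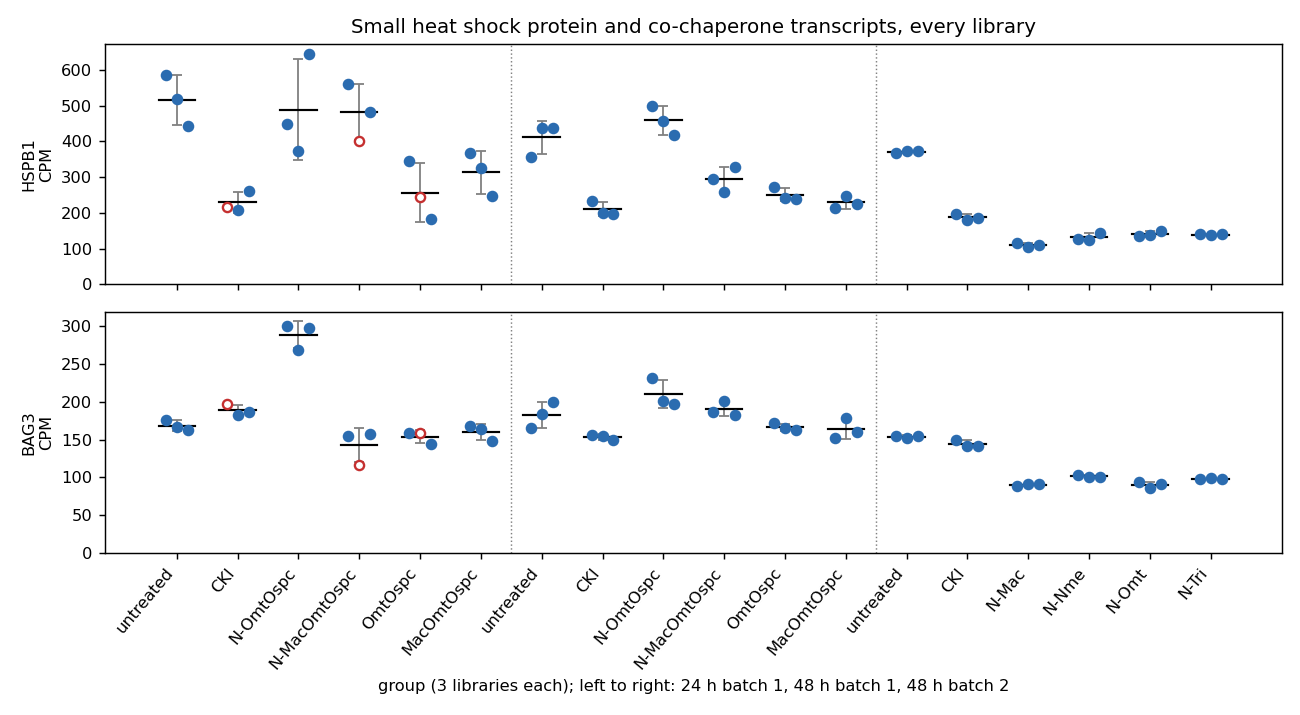
CPM of HSPB1 and BAG3 (linear axes from 0) in each of the 54 libraries by group, with the group mean as a black line, the SD (n = 3) as grey bars and the 3 libraries without a replicate number as open red circles. In 48 h batch 2, at the right, the 4 single removals lie below CKI for both genes, between 105 and 150.1 CPM for HSPB1.

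The mitochondrial chaperonin pair HSPD1 and HSPE1 fell with CKI at 48 h, and in most mixtures HSPD1 lay nearer to untreated cells. HSPD1 was at 217, 197 and 193 CPM with CKI against 349.99, 340.1 and 329.98 CPM untreated at 48 h in batch 1 (1.68-fold lower, log2 -0.75 ± 0.071, adjusted p = 1.02e-08). In batch 2 it was at 228, 231 and 229 CPM against 446, 429 and 452 CPM (1.93-fold lower, log2 -0.94 ± 0.049, adjusted p = 4.52e-17). The groups did not overlap in either batch. At 24 h HSPD1 passed with CKI when the 3 libraries were left out (log2 -0.56, adjusted p = 0.00537, against log2 -0.43, adjusted p = 0.107, with them), and the same held for N-MacOmtOspc (log2 -0.33, adjusted p = 0.0488). N-OmtOspc lowered it at 48 h (log2 -0.44, adjusted p = 6.01e-06), while N-MacOmtOspc, OmtOspc, MacOmtOspc, N-Mac and N-Tri did not pass. Marginal calls were N-Nme (log2 0.11, adjusted p = 0.0484), lost with RLE size factors (adjusted p = 0.0617) and without untreated replicate 1 or 2 or N-Nme replicate 1 or 3 (adjusted p 0.0632 to 0.148), and N-Omt (log2 -0.13, adjusted p = 0.013), lost without N-Omt replicate 1 (adjusted p = 0.0654).

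HSPE1 fell with CKI in every set, by log2 -0.52 (adjusted p = 0.0018), -0.72 (adjusted p = 0.00311) and -0.75 (adjusted p = 5.46e-10). In batch 2 it was at 35.2, 41.7 and 41.3 CPM against 66.8, 68.8 and 63.9 CPM untreated, again without overlap. Its lowest relative value was in N-OmtOspc at 24 h, at 48.5, 52.0 and 62.6 CPM against 97.6, 96.7 and 89.5 CPM (1.69-fold lower, log2 -0.76 ± 0.11, adjusted p = 1.29e-05), where HSPD1 did not change detectably (log2 -0.04 ± 0.2, adjusted p = 0.87). N-MacOmtOspc at 48 h was spread over 87.5, 42.8 and 107 CPM, and without its replicate 2 the log2 change went from 0.05 to 0.34 (adjusted p = 0.00357). The call in OmtOspc at 24 h (log2 -0.34, adjusted p = 0.0408) was lost without any one untreated library or OmtOspc replicate 3 (adjusted p 0.0593 to 0.187), with the replicate number as a block (adjusted p = 0.0568) too, but passed without the 3 libraries (log2 -0.40, adjusted p = 0.0195), as did MacOmtOspc at 24 h (log2 -0.30, adjusted p = 0.0441), and that in N-Mac (log2 -0.21, adjusted p = 0.0118) without N-Mac replicate 2 (adjusted p = 0.13). MacOmtOspc at 48 h did not pass with all libraries and passed without its replicate 1 (log2 -0.53, adjusted p = 0.0488). N-Omt was lower (log2 -0.24, adjusted p = 0.00521) and N-Nme and N-Tri did not pass.

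**Figure D4:**
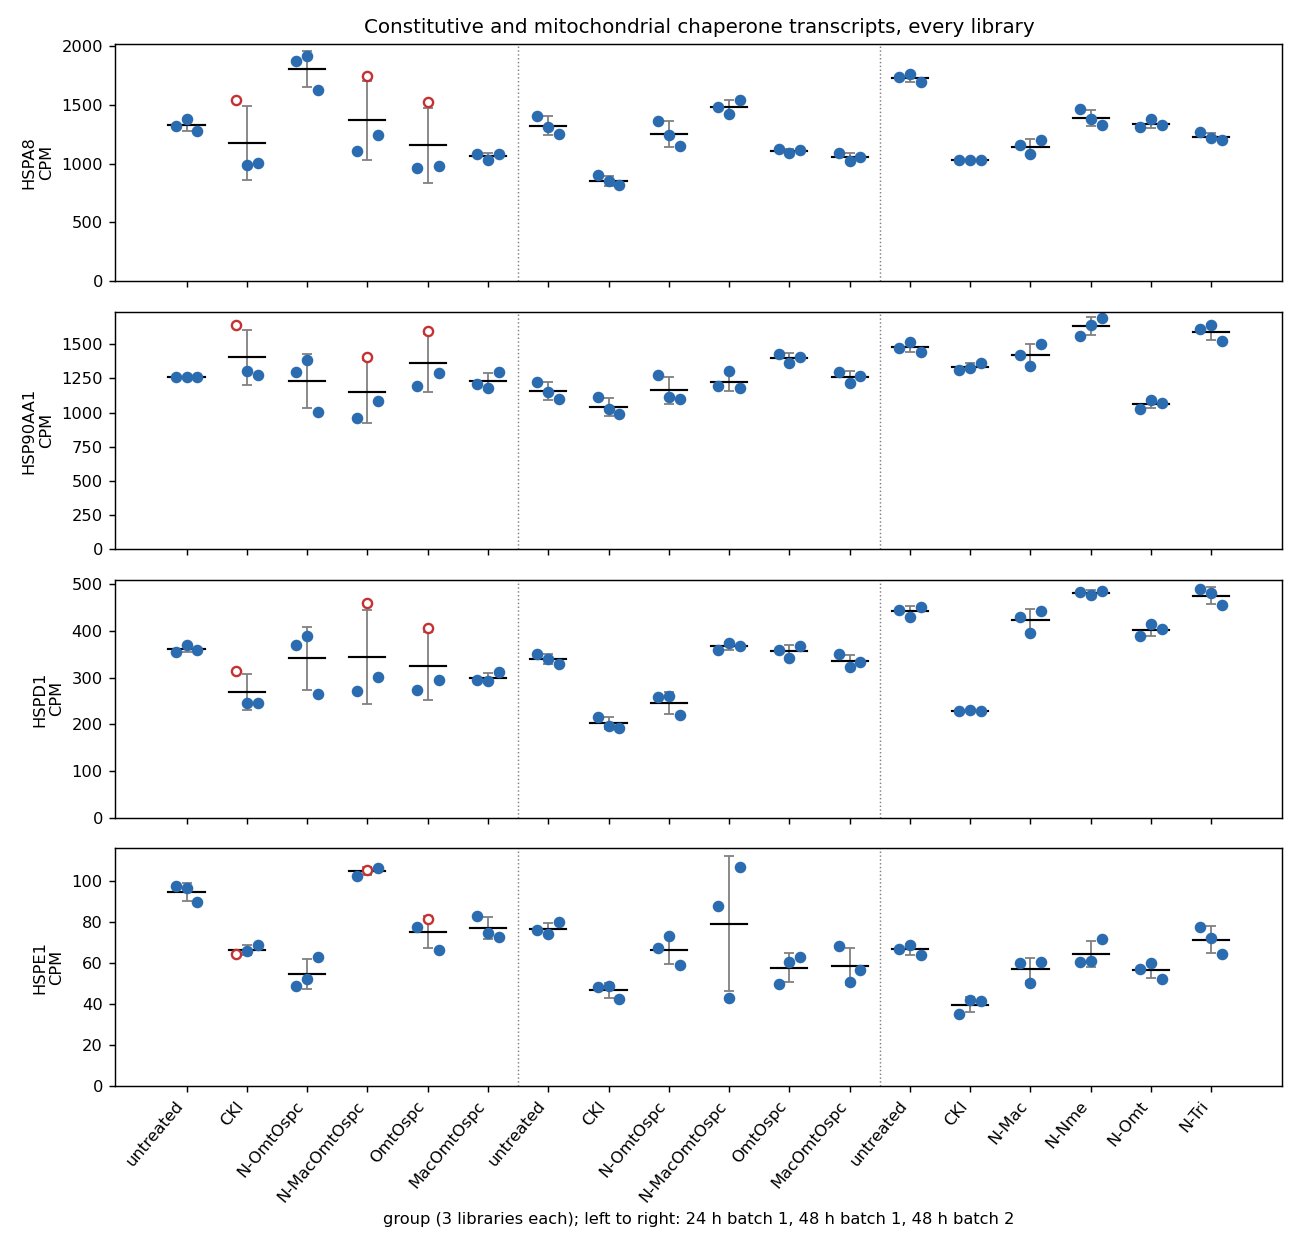
CPM of HSPA8, HSP90AA1, HSPD1 and HSPE1 (linear axes from 0) in each of the 54 libraries by group, with the group mean as a black line, the SD (n = 3) as grey bars and the 3 libraries without a replicate number as open red circles. CKI lies below untreated cells for HSPA8, HSPD1 and HSPE1 in both 48 h sets, and the HSP90AA1 panel stays between 963 and 1689 CPM.

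At 48 h in batch 1, every member that differed from whole CKI was higher in the mixture. These comparisons use the same mixture libraries as those above, and the mixtures of a set share its 3 CKI libraries. At 24 h, N-OmtOspc had 7 genes higher than CKI and 0 lower (58.7% of all genes differed, 29.2% higher and 29.5% lower), N-MacOmtOspc 6 higher and 1 lower (35.7%, 17.6% higher and 18.1% lower), OmtOspc 0 by edgeR and by DESeq2 and 2 at an unadjusted p under 0.05 (8.49%, 4.47% higher and 4.02% lower) and MacOmtOspc 1, HSPH1, lower (11.6%, 6.02% higher and 5.57% lower). Without the 3 libraries, of which CKI replicate 1 is one, N-OmtOspc had 8 higher and 0 lower (61.7% of all genes differed), N-MacOmtOspc 6 higher and 0 lower (43.7%), OmtOspc 0 (11.2%) and MacOmtOspc 1 higher, DNAJB1 (log2 0.30, adjusted p = 0.0447), and 1 lower (14.9%). HSPA1A in N-MacOmtOspc was 4.80-fold higher than with CKI with all libraries and 7.96-fold without the 3. At 48 h in batch 1 all 10 were higher in N-OmtOspc (73.1%, 36% higher and 37.1% lower) and all 10 in N-MacOmtOspc (67.2%, 33.1% higher and 34.1% lower), with 8 higher in OmtOspc (51.8%, 25.9% higher and 25.8% lower), 7 higher in MacOmtOspc (47.6%, 24% higher and 23.6% lower) and 0 lower in any of the 4. In batch 2 the split was 6 higher and 2 lower in N-Mac (69.4%, 35.1% higher and 34.3% lower), 7 and 2 in N-Nme (71.5%, 35.8% higher and 35.7% lower), 4 and 6 in N-Omt (76.3%, 37.1% higher and 39.2% lower), and 7 and 2 in N-Tri (71.4%, 34.5% higher and 36.9% lower).

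In batch 2 HSPD1 was higher than with CKI in all 4 mixtures, 1.86-fold higher in N-Mac, 2.07-fold in N-Nme, 1.76-fold in N-Omt and 2.02-fold in N-Tri (largest adjusted p = 6.98e-16). HSPB1 and BAG3 went the other way, lower than CKI in all 4 (HSPB1 log2 -0.42 to -0.75, BAG3 log2 -0.53 to -0.68). HSPA1A was above CKI in N-Mac (log2 0.63), N-Nme (0.77) and N-Tri (0.97) and below it in N-Omt (log2 -0.32, adjusted p = 5.66e-05). In batch 1, HSPA1A was 13.7-fold higher than with CKI in N-OmtOspc and 10.4-fold in N-MacOmtOspc at 48 h, and HSPB1, low with CKI, was 2.20-fold higher in N-OmtOspc at 24 h and 2.22-fold at 48 h.

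Several small differences from CKI changed their call when libraries were left out. At 24 h these were HSPA8 in N-OmtOspc (log2 0.66), lost without CKI replicate 2 (log2 0.53, adjusted p = 0.0607) or 3 (log2 0.54, adjusted p = 0.0566) and kept without the 3 libraries (log2 0.90, adjusted p = 3.42e-06), HSPH1 in MacOmtOspc (log2 -0.59), lost without MacOmtOspc replicate 1 (log2 -0.54, adjusted p = 0.0527) and kept without the 3 (log2 -0.50, adjusted p = 0.0214), and BAG3 in N-MacOmtOspc (log2 -0.40, adjusted p = 0.0107), lost without the 3 libraries (log2 -0.24, adjusted p = 0.0683). HSPD1 (log2 0.56) and HSPE1 (log2 -0.34) passed in N-OmtOspc without its replicate 3, and HSP90AA1 in N-MacOmtOspc without its replicate 2 (log2 -0.45). At 48 h, HSP90AA1 in N-OmtOspc (log2 0.18) was lost without CKI replicate 2 or 3 or N-OmtOspc replicate 1 (log2 0.10 to 0.16, adjusted p 0.0907 to 0.226), HSPE1 in N-OmtOspc (log2 0.54) without CKI replicate 3 or N-OmtOspc replicate 2 (log2 0.48 and 0.46, adjusted p 0.0603 and 0.0643), HSPH1 in MacOmtOspc (log2 0.21) without its replicate 1 (log2 0.195, adjusted p = 0.0507), and HSPB1 in OmtOspc (log2 0.25) without CKI replicate 2 or 3 or OmtOspc replicate 1 or 2 (log2 0.19 to 0.28, adjusted p 0.0505 to 0.159) and with the replicate block (adjusted p = 0.0511). In batch 2, HSP90AA1 in N-Mac passed without N-Mac replicate 2 (adjusted p = 0.0211), and DNAJB1 in N-Nme without N-Nme replicate 2 (adjusted p = 0.0174) or 3 (adjusted p = 0.0357).

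**Figure D5:**
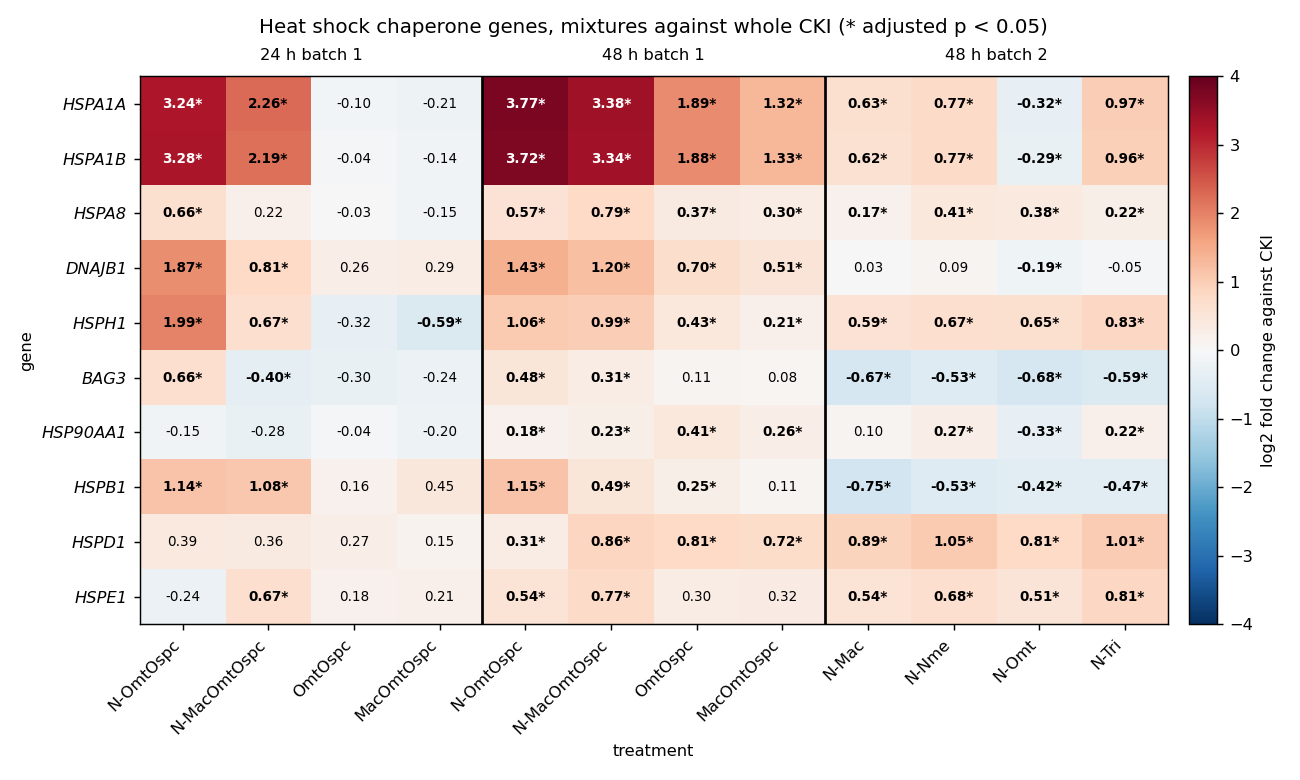
Log2 fold changes of the 10 chaperone genes (rows) in each mixture (columns) against the 3 CKI libraries of the same time and batch, with an asterisk where edgeR's adjusted p was under 0.05. At 48 h in batch 1 every cell is above 0, and in batch 2 the BAG3 and HSPB1 rows are below 0 in all 4 single removals while HSPD1 reaches 1.05 in N-Nme.

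Mixtures that differed by macrozamin alone were compared directly. These comparisons were added after the data were seen. Taking macrozamin out of CKI that already lacked the 2 alkaloids changed 6 of 10 genes at 24 h (47.6% of all genes changed). HSPH1 was lower in N-MacOmtOspc than in N-OmtOspc by log2 -1.31 (adjusted p = 1.14e-06), DNAJB1 and BAG3 each by log2 -1.06, HSPA1B by -1.09 and HSPA1A by -0.97 (adjusted p = 0.0249), while HSPE1 was higher by 0.91 (adjusted p = 5.26e-06). Without the 3 libraries the HSPA1A difference was -0.58 (adjusted p = 0.000212) and HSPA8 passed too (log2 -0.65), as it did without N-MacOmtOspc replicate 2 alone, and without N-OmtOspc replicate 1 HSPA1A missed the threshold (adjusted p = 0.0611). At 48 h 6 of 10 passed (51% of all genes), HSPB1 lower by log2 -0.66 (adjusted p = 8.74e-06), HSPA1A by -0.39, HSPA1B by -0.38 and DNAJB1 by -0.23, and HSPD1 higher by 0.55 (adjusted p = 1.19e-06) and HSPA8 by 0.22. The DNAJB1 call was lost without N-OmtOspc replicate 1 (adjusted p = 0.124) and the HSPA8 call without N-OmtOspc replicate 3 (adjusted p = 0.0944), while without N-MacOmtOspc replicate 2 HSPE1 (log2 0.53) and BAG3 (log2 -0.20) passed. Adding macrozamin to OmtOspc changed 0 of 10 genes at 24 h (0% of all genes passed, and 0 members passed at an unadjusted p under 0.05 or by DESeq2), and at 48 h it changed only HSPA1A (log2 -0.57 ± 0.089, adjusted p = 0.000833) and HSPA1B (log2 -0.55, adjusted p = 0.00106), where 1.98% of all genes passed.

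N-Omt stood apart from the other single removals in HSPA1A, HSPA1B, DNAJB1 and HSP90AA1, with every library below all those of N-Mac, N-Nme and N-Tri. Against the mean of N-Mac, N-Nme and N-Tri, 9 of 10 genes passed (66% of all genes), led by HSPA1A (log2 -1.11 ± 0.056, adjusted p = 3.85e-17), HSPA1B (log2 -1.07) and HSP90AA1 (log2 -0.52 ± 0.043, adjusted p = 3.31e-12). For HSPA8, HSPB1, HSPD1, HSPE1, BAG3 and HSPH1 the range of N-Omt overlapped that of another single removal. Passing against the mean does not set N-Omt apart for those genes. DNAJB1 (log2 -0.21, adjusted p = 5.02e-05) and HSPD1 (log2 -0.17, adjusted p = 0.000282) were lower by less, HSPB1 was higher (log2 0.17, adjusted p = 0.00128), and HSPH1 did not pass (log2 -0.05 ± 0.042, adjusted p = 0.33). The calls of HSPA8 (log2 0.11), HSPE1 (log2 -0.16) and BAG3 (log2 -0.09) were each lost on leaving out 1 library, HSPA8 without N-Omt replicate 2 (adjusted p = 0.124) or 3 (adjusted p = 0.0549), HSPE1 without N-Omt replicate 3 (adjusted p = 0.156), and BAG3 without N-Omt replicate 2 or 3, N-Nme replicate 2 or N-Tri replicate 2 (adjusted p 0.0559 to 0.333). This comparison was also chosen with the values in view, and none like it was run for N-Mac, N-Nme or N-Tri.

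The response to N-OmtOspc was smaller at the later time for 3 genes. In N-OmtOspc the change against untreated cells was smaller at 48 h than at 24 h for HSPH1 (log2 difference -1.29 ± 0.15, adjusted p = 1.04e-07), BAG3 (-0.57 ± 0.14, adjusted p = 0.00164) and DNAJB1 (-0.43 ± 0.17, adjusted p = 0.0469), 3 of 10 genes where 34.2% of all genes passed, and for HSPA1A the difference was -0.03 ± 0.36 (adjusted p = 0.952). The DNAJB1 call was lost on leaving out most single libraries (adjusted p 0.0543 to 0.133), and without N-OmtOspc replicate 3 at 24 h HSPA8 (log2 -0.60), HSPD1 (log2 -0.55) and HSPE1 (log2 0.70) passed, HSPE1 (log2 0.68) also without N-OmtOspc replicate 3 at 48 h. Without the 3 libraries, 5 genes passed (42.5% of all genes), DNAJB1 (log2 -0.43, adjusted p = 0.00154) among them, with HSPA8 (log2 -0.51, adjusted p = 0.000318, against 0.0663 with all libraries) and HSPD1 (log2 -0.38, adjusted p = 0.0235) added. With OmtOspc, HSPA1A (log2 difference 1.42 ± 0.36, adjusted p = 0.0118) and HSPA1B (1.37, adjusted p = 0.0151) rose more at 48 h than at 24 h (8.06% of all genes passed), HSPA1B not passing without OmtOspc replicate 3 at 24 h (adjusted p = 0.0538). Without the 3 libraries HSPA1A (log2 1.62, adjusted p = 8.36e-10) and HSPA1B (log2 1.58, adjusted p = 1.84e-09) passed for OmtOspc. DNAJB1 was added there (log2 0.40, adjusted p = 0.0156), where 13.7% of all genes passed. For CKI 0 of 10 genes passed between the times (0.391% of all genes, 0.177% higher and 0.214% lower) and 0 of 10 between the batches (8.9%, 3.89% higher and 5% lower), with 3 and 1 at an unadjusted p under 0.05. The time effects of N-MacOmtOspc (7.35% of all genes) and MacOmtOspc (2.59%) also gave 0 of 10, with 2 and 3 unadjusted, and DESeq2 called 0 in each of these 4 comparisons. Without N-MacOmtOspc replicate 3 at 24 h DNAJB1 passed (log2 0.54, adjusted p = 0.0456). Without the 3 libraries HSPA8 (log2 0.34) and HSPD1 (log2 0.45) passed for N-MacOmtOspc (14.2% of all genes), and HSPA1A (log2 0.92) and HSPA1B (log2 0.88) for MacOmtOspc (8.63%).

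The members did not vary as 1 block. Over the 54 libraries, with log2 CPM centred within each time and batch, HSPA1A had a Pearson r of 0.94 with DNAJB1 and 0.87 with HSPH1, but of 0.08 with HSP90AA1, 0.20 with HSPD1 and 0.29 with HSPB1. HSPD1 and HSPE1 had an r of 0.53. These values describe libraries that share cell line, treatment groups and depth. Among 9775 other genes, the one most like HSPA1A was HSPA6 (r = 0.95), a strictly inducible HSP70, followed by PPP1R10 (0.91) and MT1X (0.90). For HSPH1 it was HSPA4 (0.96), another HSP110 protein, for DNAJB1 ZNF622 (0.92), for HSPB1 SURF6 (0.90), for HSPD1 WDR43 (0.92), for HSPE1 EIF3M (0.85), for HSPA8 ADAMTS1 (0.84), for BAG3 RXRA (0.88) and for HSP90AA1 UBQLN1 (0.78).

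HSPA6 changed strongly in the same mixtures of batch 1. Its log2 changes in N-OmtOspc were 6.05 at 24 h and 6.88 at 48 h, in N-MacOmtOspc 6.35 and 7.01, and at 48 h in OmtOspc 3.79 and MacOmtOspc 3.13, and it fell with CKI at 48 h (log2 -1.10 in batch 1 and -0.91 in batch 2). It spanned 0.341 to 258 CPM, with as few as 8 counts in a library, so the fitted changes depend on low untreated counts. Unlike HSPA1A it had slightly larger changes in N-MacOmtOspc than in N-OmtOspc, a difference that was not tested, and it rose in N-Omt (log2 1.09, adjusted p = 4.77e-07). In the list of 17 other heat shock factor targets, 13 rose and 1 fell in N-OmtOspc at 24 h (31.1% and 30.9% of all genes, median log2 1.14 against -0.01), 13 rose and 2 fell at 48 h (38.3% and 38.3%), 12 rose and 2 fell in N-MacOmtOspc at 48 h (35.8% and 35.3%), and with CKI at 48 h in batch 1 3 rose and 8 fell (27% and 27%). SERPINH1, the collagen chaperone HSP47, was in that list the exception that fell in 15 of 15 comparisons (log2 -0.57 to -1.49).

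Partner proteins moved in both directions. Of the 12 other cytosolic J proteins, 11 were tested at 24 h, where 8 rose and 3 fell in N-OmtOspc (31.1% and 30.9% of all genes), and DNAJB4 rose in 14 and DNAJB2 in 12 of 15 comparisons. Among the 8 other HSP70 exchange factors and co-factors, BAG1 fell in 14 of 15 (median log2 -1.22) and HSPBP1 in 10 of 15, in N-Mac by log2 -1.48 and -1.30. Of 13 tested HSP90 partners in N-MacOmtOspc at 48 h, 9 rose and 2 fell (35.8% and 35.3% of all genes), with FKBP5 lower in 10 of 15 and PPID higher in 8 of 15. Only 3 of the 8 other small heat shock proteins were expressed enough to test, and HSPB8, the BAG3 partner, rose in 15 of 15 comparisons (log2 0.73 to 3.68), in contrast to HSPB1. HSPB6, at 0.049 to 6.31 CPM, rose in 7. The sensor HSF1 passed in 3 of 15 (2 higher, 1 lower, log2 -0.31 to 0.54) and HSF2 rose in 7 of 15, while HSBP1L1 fell in 6. Of the mitochondrial list of 15, HSPA9, the matrix HSP70, fell with CKI at 48 h (log2 -0.43 and -0.67) and rose in 10 comparisons, up to log2 1.53 in N-MacOmtOspc at 48 h, and the protease gene LONP1 rose in 12. These lists were written with earlier results of these data known and overlap in part, and their counts are descriptions. FKBP4, CHORDC1, AHSA1, STIP1, DNAJA1, HSPA4L and HSPA6 are counted both among the heat shock factor targets and in another list.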

How the data were processed

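Gene counts of 54 RNA-seq libraries (oligo(dT)-selected, strand-specific, paired reads) were taken as the authors deposited them, as raw read counts per gene in 1 table. The submitters' processing notes name FastQC 0.11.4, Trim Galore 0.3.7, STAR 2.5.3a, Subread 1.5.2 with featureCounts, edgeR 3.22.3 and the hg19 build. How reads matching several genes were treated, and the strand setting of the counting, are not given in the sources used here.

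Each time and batch (18 libraries, 6 groups) was fitted separately with edgeR 4.0.16 (R 4.3.3) after filterByExpr and TMM scaling, by the quasi-likelihood test with Benjamini-Hochberg adjustment over all 15191, 15513 or 15115 genes tested and a threshold of 0.05. Effects at 2 times or in 2 batches were compared in fits of 36 libraries. SEs were derived from the F statistic, and CPM values use TMM factors over all 54 libraries. Totals of 17673537 to 26138924 counts gave the 10 genes at least 719 counts in every library. Groups came from the labels. The 10 genes, the gene lists and the tests were chosen with earlier results of these data known. The genes named beside the 10 follow the rule of largest changes within the lists and of highest correlation. DESeq2 1.42.0, other scalings, filters and fits, and leaving out each library were the alternatives, and the comparisons between mixtures, the time effects of mixtures and the fits without 3 libraries were chosen after seeing the data. The statistics were tested on simulated counts with known changes, for the CKI contrast of each fit only. Every gene had the same dispersion there, and no library was made to lean towards another batch. Comparisons between mixtures were not simulated.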

Additional observations from a re-analysis of the deposited data

Results flagged for a closer look

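For 5 values the change against untreated cells differed between 24 and 48 h by edgeR's quasi-likelihood test of the difference itself. In N-OmtOspc the log2 change at 48 h minus that at 24 h was -1.29 for HSPH1 (adjusted p = 1.04e-07), -0.57 for BAG3 (adjusted p = 0.00164) and -0.43 for DNAJB1 (adjusted p = 0.0469). These were 3 of 10 members where 34.2% of all genes passed, and the DNAJB1 call was lost on leaving out most single libraries. In OmtOspc this difference was 1.42 for HSPA1A (adjusted p = 0.0118) and 1.37 for HSPA1B (adjusted p = 0.0151), where 8.06% of all genes passed. The HSPA1A and HSPA1B values count as 1 result because the genes are near-identical copies.

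With CKI in batch 1, every library lay above the untreated range at 24 h and below it at 48 h for HSPA1A, and the difference between the times was -0.58 on the log2 scale and did not pass the test (adjusted p = 0.573). BAG3 was marked for the same reason, with a difference of -0.40 (adjusted p = 0.223).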

How the results depend on the processing

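Of 5976 alternative values for single genes, 5698 kept their direction and their side of the threshold, 149 lost and 129 gained the threshold, and 0 reversed. The counts below are of the 10 genes passing the test, and the cause of each move was not tested unless the setting itself removes samples or genes. The share of all genes passing also depends on the setting and is given below only for the fits without the 3 libraries. The other counts describe the settings and are no result about the members. With all 54 libraries in 1 fit the counts were 4 for CKI at 24 h (2 in the reported fit), 1 for OmtOspc (2) and 2 for MacOmtOspc (0) at 24 h, 5 for CKI (8) and 4 for N-Mac (7) in batch 2, 1 for the time effect of CKI (0), 5 for that of N-OmtOspc (3), 4 for OmtOspc (2) and 1 for MacOmtOspc (0), 2 for N-MacOmtOspc against N-OmtOspc at 48 h (6), 0 for MacOmtOspc against OmtOspc at 48 h (2), 4 for N-Omt against the other single removals (9), and 24 summed over the 4 mixtures against CKI at 24 h (15). Requiring in addition an absolute log2 change of 1 left, against untreated cells, 1, 4, 2 and 1 for CKI, N-OmtOspc, N-MacOmtOspc and OmtOspc at 24 h, 0, 3, 3, 2 and 2 for CKI, N-OmtOspc, N-MacOmtOspc, OmtOspc and MacOmtOspc at 48 h, 0 for CKI in batch 2 and 1 for each single removal, with 1 for the time effect of N-OmtOspc, 0 for both pairs of mixtures at 48 h, 2 for N-Omt against the other single removals, and 8, 12 and 2 summed against CKI. Fits of only the groups compared gave 1 for OmtOspc and 7 for MacOmtOspc at 24 h, 9 for CKI at 48 h in batch 1, 5, 4 and 5 for the time effects of N-OmtOspc, OmtOspc and MacOmtOspc, and 2 and 5 for the pairs of mixtures at 48 h. Library sizes alone gave 1 for OmtOspc, 1 for MacOmtOspc and 5 for CKI in batch 2, no filter gave 1 for OmtOspc and 1 for MacOmtOspc, and DESeq2 gave 2 for MacOmtOspc and 8 for CKI at 48 h in batch 1. Without the 3 libraries the counts were 4 for CKI (32.7% of all genes) and 3 for MacOmtOspc (20.2%) at 24 h. For the time effects of N-OmtOspc, N-MacOmtOspc and MacOmtOspc they were 5, 2 and 2 (42.5%, 14.2% and 8.63% of all genes). Library sizes alone also moved the median of all genes in N-OmtOspc at 24 h to a log2 change of -0.31, where 34.4% of calls were higher against 50.2%.

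Deviations from the group mean were correlated between same-numbered treated and untreated libraries (r of -0.607 to 0.666). In 0 of 15 treated groups did all 3 pass a set cutoff above 0. All 3 were positive but low in N-Mac, N-Nme, N-Omt and N-Tri (0.00812 to 0.0845). Differently numbered libraries were not compared, so whether replicate numbers pair the libraries was not tested. With the replicate block the counts were 1 for OmtOspc and 1 for MacOmtOspc at 24 h, from HSPE1 (log2 -0.34, adjusted p = 0.0568) and HSPB1 (log2 -0.72, adjusted p = 0.0479), and the block changed 1 further call, HSPB1 in OmtOspc against CKI at 48 h.

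Leaving out 1 library gave, against untreated cells at 24 h, 2 to 2 genes for CKI, 6 to 7 for N-OmtOspc, 4 to 4 for N-MacOmtOspc, 1 to 2 for OmtOspc and 0 to 0 for MacOmtOspc, at 48 h 4 to 6, 5 to 6, 5 to 7, 7 to 8 and 5 to 6 in the same order, and in batch 2 6 to 8 for CKI, 6 to 7 for N-Mac, 6 to 8 for N-Nme, 9 to 10 for N-Omt and 6 to 7 for N-Tri. It gave 2 to 6, 0 to 1, 1 to 2 and 0 to 0 for the time effects of N-OmtOspc, N-MacOmtOspc, OmtOspc and MacOmtOspc, 5 to 7 and 5 to 8 for N-MacOmtOspc against N-OmtOspc, 0 to 0 and 2 to 2 for MacOmtOspc against OmtOspc, 6 to 9 for N-Omt against the other single removals, and 14 to 19, 32 to 37 and 36 to 37 summed against CKI. The biological coefficient of variation was 0.175 at 24 h, 0.0763 at 48 h in batch 1 and 0.048 in batch 2, so equal changes were harder to detect at 24 h.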

Other observations

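The chaperones of the endoplasmic reticulum followed another order of treatments than HSPA1A. In OmtOspc and MacOmtOspc at 48 h all 12 of that list rose (median log2 1.45 and 1.34, with 29.1% and 25.7% of all genes higher), while with CKI in batch 2 none rose and 11 fell (median -0.94, with 34.2% of all genes lower), and in N-OmtOspc at 48 h 3 rose and 9 fell (median -0.71, with 38.3% of all genes higher and 38.3% lower). HSPA5, the HSP70 of that compartment, rose by log2 2.63 in OmtOspc and 1.54 in N-MacOmtOspc at 48 h and fell by 1.67 on the log2 scale with CKI in batch 2. In N-OmtOspc at 48 h it rose by only 0.28, in the libraries where HSPA1A was 12.0-fold higher.

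The cytosolic chaperonin TRiC and its partner prefoldin, which fold actin and tubulin, were mostly lower at 48 h with CKI and OmtOspc. Of 14 genes, 10 fell and 0 rose with CKI in batch 1 (27% of all genes fell), 11 fell and 0 rose with CKI in batch 2 (34.2%), and 11 fell and 1 rose in OmtOspc (28.7%). PFDN2 was an exception, higher in 10 of 15 comparisons and lower in 1, and PFDN6 was lower in 9 and higher in 0.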
